A study of Mus musculus with 12 samples.

Results

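Heat shock and unfolded protein response genes were described in EGFR+ cells of mouse glioblastoma (GBM). The 40 genes were taken by symbol from a list of cytosolic chaperone and endoplasmic reticulum (ER) stress genes, and all 40 were among the 18180 genes of the table. They comprised 14 heat shock genes and 26 ER stress genes, which are treated apart. The bulk RNAseq data hold 12 libraries, from tumors T3, T4 and T5 sorted into 4 populations (PDGFRA+, PDGFRA-, GAL1+ and GAL1-), so that each group has 3 samples paired by tumor. The study asked how EGFR+ PDGFRA+ and EGFR+ GAL1+ cells differ in their transcriptomes. PDGFRA is a growth factor receptor of oligodendrocyte precursors, and GAL1 is Galectin-1, a lectin encoded by *Lgals1*.

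Every group, the negative populations included, came from tumors with the same alleles, among them a Cre-dependent human EGFR transgene, Cdkn2A-/- and a Cre-dependent luciferase reporter, on a background that mixes Balb/cJ, SJL, FVBN/J, 129S4 and C57Bl/6J. Tumors were started by injecting a Cre lentivirus into the striatum of adult mice, and the labels give neither the age at harvest nor which Cre virus was used. The labels write PDGFR for the receptor, and cells were stained for EGFR together with either that receptor or Galectin-1. The sorted cells are described as CD45-, yet no CD45 antibody is listed for this sort. PDGFRA and Galectin-1 were stained in separate sorts, so that a PDGFRA+ library may hold the same kinds of cells as either GAL1 library of its tumor. The tumor number is the only label that ties libraries to an animal.

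Chaperones of the heat shock family hold unfolded proteins in the cytosol and mitochondria, and their genes are switched on by heat shock factor HSF1 when misfolded protein draws chaperones away from it. In the ER, the sensors IRE1 (*Ern1*), PERK (*Eif2ak3*) and ATF6 respond to unfolded protein by raising folding and degradation capacity through XBP1, ATF6 and ATF4. Secretory cells such as plasma cells and activated macrophages use this response heavily, and heat shock genes also respond to the warm enzymatic dissociation of tissue.

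Recovered reads ran from 9851175 to 24117541 per library, and all 40 genes had more than 3 reads in every library. *Pdgfra* itself was at a log2 CPM (the log2 of read counts scaled to library size) of 9.95 to 10.81 in PDGFRA+ cells, 7.36 to 10.11 in PDGFRA-, 6.74 to 8.95 in GAL1+ and 10.34 to 10.81 in GAL1- cells. The PDGFRA- library of T5, at 7.36, lay within the range of the GAL1+ libraries. *Lgals1* was at 7.41 to 7.95 in GAL1+ cells and 6.05 to 6.81 in GAL1- cells. Leukocyte genes also differed between the populations, although the cells are described as CD45-. The summed CPM of 12 pan-leukocyte markers was 3091 to 4230 in GAL1+ cells, 90.2 to 236 in GAL1- cells, 693 to 1621 in PDGFRA+ cells and 760 to 3290 in PDGFRA- cells, where the highest value was that of T5. *Ptprc*, the gene of CD45, was at a log2 CPM of 8.21, 8.74 and 9.0 in the GAL1+ libraries of T3, T4 and T5 and 3.70, 5.18 and 4.94 in the GAL1- libraries.

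Most ER stress genes had their highest level of each tumor in GAL1+ cells and their lowest in GAL1- cells, while the heat shock genes differed from tumor to tumor. GAL1+ cells held the highest level of 22 of 26 ER stress genes in T3, 19 in T4 and 17 in T5. For the heat shock genes this held for 11 of 14 in T3, 9 in T4 and 1 in T5, where PDGFRA- cells held the highest level of 11. GAL1- cells held the lowest level of 17 ER stress genes in T3, 21 in T4 and 23 in T5, and of 6 heat shock genes in T3, where PDGFRA+ cells held as many, 9 in T4 and 11 in T5. These places were not counted over all genes, so that how far they are particular to the members is not known. In GAL1+ over GAL1- cells, 9 of the 14 heat shock genes were called higher and 1 lower (Benjamini-Hochberg adjusted p under 0.05 in limma, adjusted over all genes), against a background of 28.9% of all genes called higher and 29.3% called lower. Among the 26 ER stress genes, 21 were higher and 2 lower in the same comparison. The median log2 fold change was 0.48 for the heat shock genes and 0.78 for the ER stress genes, beside -0.03 for all genes. PDGFRA+ cells had less than GAL1+ cells of many of the same transcripts: 6 heat shock genes were lower and none higher, and 19 ER stress genes were lower and 1 higher, where 17.0% of all genes were called lower and 20.9% higher. The medians here were -0.47 and -0.57, beside 0.01 for all genes. The split of the heat shock calls in PDGFRA+ over GAL1+ cells moved with the scaling, to 1 lower and 1 higher (median -0.18) under quantile normalization and to 11 lower and none higher (median -0.63) after centring on the sample median. The median of all genes was -0.07 under quantile normalization and -0.15 after centring. The comparisons share libraries and are not independent of each other. In bulk samples, fewer cells of a type and less RNA per cell cannot be told apart.

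Several marker lists moved with these counts and others did not. All 12 pan-leukocyte markers were higher in GAL1+ than in GAL1- cells (median log2 fold change 4.44) and lower in PDGFRA+ than in GAL1+ cells (median -1.59). Microglia and macrophage markers, 8 of each, were likewise all higher in GAL1+ than in GAL1- cells, and so were 8 of 8 endothelial markers. In PDGFRA+ over GAL1+ cells 8 of 8 macrophage and 5 of 8 microglia markers were lower, but 0 of 8 endothelial markers were called (none with an unadjusted p under 0.05, median -0.40). At that unadjusted threshold 4134 of all 18180 genes were lower and 4623 higher. Of 7 T and NK cell markers 2 were higher in GAL1+ than in GAL1- cells, with a median of -0.03, and 1 was lower in PDGFRA+ than in GAL1+ cells. The summed CPM of the macrophage markers was 2851 to 3256 in GAL1+ cells and 27.1 to 92.7 in GAL1- cells, and that of the endothelial markers was 323 to 419 and 57.0 to 104. Oligodendrocyte lineage markers went the other way, with 8 of 8 lower in GAL1+ than in GAL1- cells (median -2.76) and summed CPM of 652 to 1977 and 5335 to 6518. No marker in the table was at or below 3 reads in all libraries of any population. The part of these cells in the chaperone differences was not tested.

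**Figure D1:**
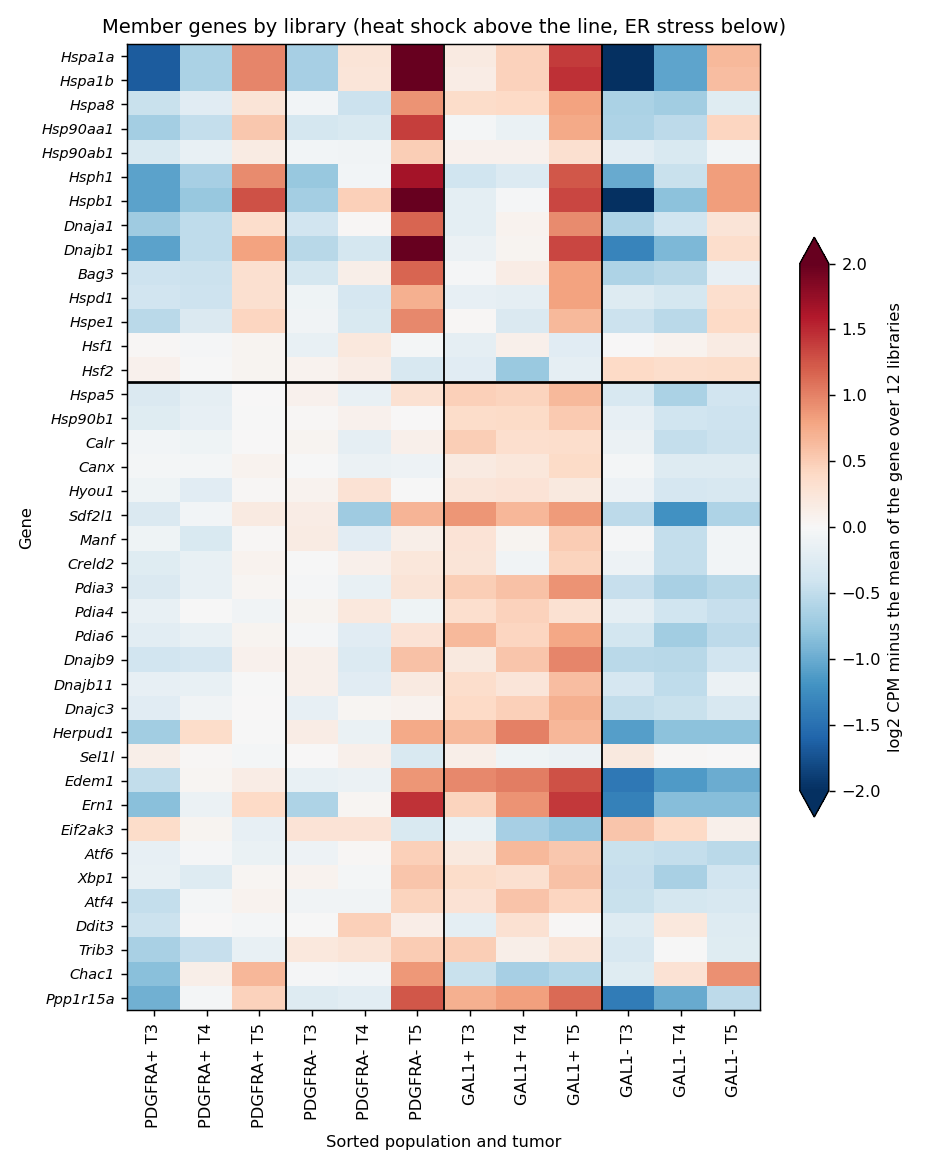
Log2 CPM of each of the 40 genes in 12 libraries, given as the difference from the mean of that gene over all libraries (colour, red higher and blue lower, saturated at 2 in either direction). Columns are the 4 sorted populations with tumors T3, T4 and T5 in each, and the 14 heat shock genes lie above the line. Heat shock genes are red in the T5 column of several populations, whereas most ER stress genes are red across the GAL1+ columns and blue across the GAL1- columns.

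The calls depended on the tumor term, on single tumors and on the scaling. Without the tumor block, 2 heat shock genes (1 higher and 1 lower) and 20 ER stress genes were called in GAL1+ over GAL1- cells, and 0 heat shock and 10 ER stress genes in PDGFRA+ over GAL1+ cells, where 1 heat shock gene (higher) had an unadjusted p under 0.05. Over all genes the calls also fell, from 5254 higher and 5324 lower to 4248 and 4144 in GAL1+ over GAL1- cells. In PDGFRA+ over GAL1+ cells they fell from 3803 higher and 3097 lower to 2215 and 939. At an unadjusted p under 0.05, 3654 of all genes were higher and 2903 lower there without the block. The GAL1+ over GAL1- calls lost without the block were those of *Hspa1a*, *Hspa1b*, *Hsp90ab1*, *Hsph1*, *Hspb1*, *Dnaja1*, *Dnajb1*, *Bag3*, *Manf*, *Creld2* and *Chac1* (adjusted p of 0.0538 to 0.693). The PDGFRA+ over GAL1+ calls lost were those of the 6 heat shock genes and of *Calr*, *Sdf2l1*, *Manf*, *Dnajb9*, *Herpud1*, *Ern1*, *Eif2ak3*, *Xbp1*, *Atf4* and *Ppp1r15a* (adjusted p of 0.0515 to 0.69). The medians were the same with and without the block. With T3 left out, 0 heat shock genes and 5 ER stress genes were called in PDGFRA+ over GAL1+ cells, with medians of -0.38 and -0.52 and 3 heat shock genes lower at an unadjusted p under 0.05. Of all 18180 genes, 1813 were then called higher and 297 lower, and 3641 were higher and 2329 lower at the unadjusted threshold. Leaving out T4 gave 1 heat shock gene and 14 ER stress genes in that comparison, and leaving out T5 gave 6 and 13. The calls over all genes were 2755 higher and 2108 lower without T4, and 2560 higher and 1707 lower without T5. Without the PDGFRA- library of T5 the count of heat shock genes called was 10, with 9 lower and 1 higher. That fit called 3493 of all genes lower and 4184 higher in PDGFRA+ over GAL1+ cells. Quantile normalization called 5 heat shock genes higher and 2 lower and 16 ER stress genes higher and 3 lower in GAL1+ over GAL1- cells, and 14 ER stress genes lower and 1 higher in PDGFRA+ over GAL1+ cells. Over all genes it called 4631 higher and 5616 lower in the first comparison, and 3460 higher and 3386 lower in the second. *Dnajc3*, *Edem1*, *Pdia3* and *Pdia6* were the 4 of 26 genes called in PDGFRA+ over GAL1+ cells under all 12 other settings tried, and in GAL1+ over GAL1- cells 17 of 33 were.

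Heat shock genes varied more between tumors than between populations, and ER stress genes the other way round. A sum of squares over the 12 libraries was split into a part for the population, a part for the tumor and a rest. The tumor took a median of 68.2% and the population 23.8% for the heat shock genes, compared with 11.5% and 79.5% for the ER stress genes and 22.4% and 50.5% for all genes. The tumor part exceeded the population part in 12 of 14 heat shock genes, 3 of 26 ER stress genes and 32.7% of all genes. The exceptions among heat shock genes were *Hspa8* and *Hsf2*, and those among ER stress genes were *Sel1l*, *Ddit3* and *Chac1*. T5 had the highest mean of the tumors in 12 of 14 heat shock genes, 20 of 26 ER stress genes and 35.5% of all genes, but the distance was larger for the heat shock genes. Their median T5 minus T3 difference was 1.02 on the log2 scale, against 0.19 for the ER stress genes and -0.02 for all genes. Each tumor stands for itself, so that this is a description with no test, and animal, harvest and sort cannot be told apart.

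**Figure D2:**
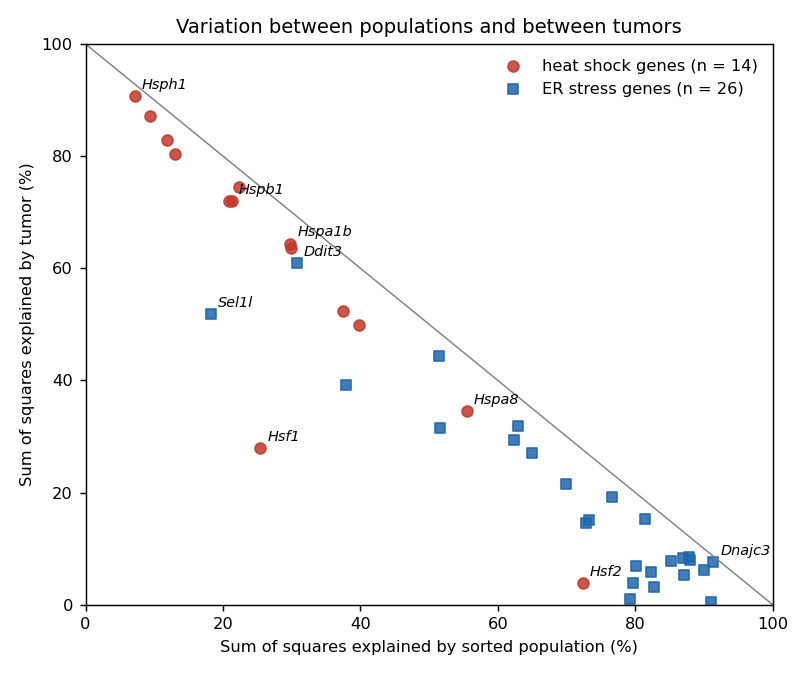
Share of the sum of squares over 12 libraries explained by sorted population (horizontal axis, %) and by tumor (vertical axis, %), with 1 point per gene. Circles are the 14 heat shock genes, squares the 26 ER stress genes, and the line marks where both shares add up to all of it. *Hsph1* sits at 90.8% tumor and *Dnajc3* at 91.3% population.

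The cytosolic HSP70 and HSP90 chaperones were higher in GAL1+ than in GAL1- cells in 5 of 6 genes, of which *Hspa1a* and *Hspa1b* kept the call under quantile normalization. *Hspa1a* and *Hspa1b* encode the inducible HSP70 and are near-identical copies, with 54.2% and 55.8% of their 75-base stretches found in other transcripts, so that the division of reads between them is uncertain. In T3, T4 and T5, *Hspa1b* was at a log2 CPM of 8.45, 9.49 and 11.09 in PDGFRA+ cells, 9.46, 10.36 and 12.63 in PDGFRA- cells, 10.26, 10.58 and 11.57 in GAL1+ cells and 7.71, 9.06 and 10.74 in GAL1- cells. The highest levels were in T5 in every population and the ranges of GAL1+ and GAL1- cells overlapped, although GAL1+ exceeded GAL1- cells within each of the 3 tumors. The log2 fold change of *Hspa1b* was 1.63 ± 0.30 (SE, adjusted p = 0.0014) in GAL1+ over GAL1- cells and -1.12 ± 0.30 (SE, adjusted p = 0.0187) in PDGFRA+ over GAL1+ cells. The *Hspa1a* levels (log2 CPM in T3, T4 and T5) were 8.47, 9.50 and 11.10 in PDGFRA+ cells, 9.47, 10.38 and 12.64 in PDGFRA- cells, 10.30, 10.59 and 11.52 in GAL1+ cells and 7.72, 9.07 and 10.77 in GAL1- cells. Its pattern was the same, at 1.62 ± 0.32 (SE, adjusted p = 0.00184) and -1.12 ± 0.32 (SE, adjusted p = 0.0222), and for the sum of both genes the log2 fold changes were 1.62 (adjusted p = 0.00171) and -1.12 (adjusted p = 0.0213). Quantile normalization brought *Hspa1b* to 0.97 and -0.65 and *Hspa1a* to 0.99 and -0.64, and ended their calls in PDGFRA+ over GAL1+ cells (adjusted p = 0.168 and 0.207). Averaged over the populations, *Hspa1b* was 5.81 fold higher in T5 than in T3.

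*Hspa8* is the constitutive HSC70, which also has many processed copies (32.8% of its stretches were shared). *Hspa8* had log2 CPM values of 10.12, 10.34 and 10.82 in PDGFRA+ cells, 10.52, 10.14 and 11.47 in PDGFRA- cells, 10.94, 10.96 and 11.38 in GAL1+ cells and 9.94, 9.88 and 10.32 in GAL1- cells, in the order T3, T4 and T5. All GAL1+ libraries lay above all other libraries except the PDGFRA- library of T5, which was the highest. *Hspa8* rose by 1.05 ± 0.18 (SE, adjusted p = 0.000862) in GAL1+ over GAL1- cells and was -0.67 ± 0.18 (SE, adjusted p = 0.0184) in PDGFRA+ over GAL1+ cells. Under quantile normalization it passed in neither, at 0.27 (adjusted p = 0.157) and -0.13 (adjusted p = 0.519). *Hsph1* encodes HSP110, a nucleotide exchange factor of HSP70, and the tumor took 90.8% of its variation. Over T3, T4 and T5 the log2 CPM of *Hsph1* was 7.80, 8.20 and 9.82 in PDGFRA+ cells, 8.11, 8.81 and 10.53 in PDGFRA- cells, 8.47, 8.59 and 10.12 in GAL1+ cells and 7.87, 8.42 and 9.71 in GAL1- cells. The T5 library was at least 9.71 in each population and no library of T3 or T4 was above 8.81. Within tumors *Hsph1* was 0.39 ± 0.15 (SE, adjusted p = 0.0431) in GAL1+ over GAL1- cells, a sign that turned to -0.030 under quantile normalization, and -0.46 ± 0.15 (SE, adjusted p = 0.0358) in PDGFRA+ over GAL1+ cells, where quantile normalization gave -0.14 (adjusted p = 0.488). Both *Hsph1* calls were lost in limma without the trend (adjusted p = 0.0672 and 0.0582). The stress-inducible HSP90, *Hsp90aa1*, was not called in either comparison, with 0.44 ± 0.17 (SE, adjusted p = 0.0529) and -0.40 ± 0.17 (SE, adjusted p = 0.0948). Its constitutive partner *Hsp90ab1* was 0.35 ± 0.13 (SE, adjusted p = 0.0382) in GAL1+ over GAL1- cells but -0.74 after quantile normalization (adjusted p = 0.000683), and at a pseudocount of 1 CPM its adjusted p was 0.0512. Calls in PDGFRA+ over GAL1+ cells were lost without T3 for *Hspa1a*, *Hspa1b*, *Hspa8* and *Hsph1* (adjusted p of 0.14 to 0.189), without T4 for *Hspa1a*, *Hspa1b* and *Hsph1* (adjusted p of 0.0799 to 0.119) and without T5 for *Hsph1* (adjusted p = 0.0612). In GAL1+ over GAL1- cells the call was lost without T3 for *Hsph1* and *Hsp90ab1* (adjusted p of 0.14 to 0.19), without T4 for *Hsph1* and *Hsp90ab1* (adjusted p of 0.0798 to 0.179) and without T5 for *Hsph1* and *Hsp90ab1* (adjusted p of 0.102 to 0.123).

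The co-chaperones and the small heat shock protein were all higher in GAL1+ than in GAL1- cells. *Hspb1*, the small heat shock protein HSP27, spanned the widest range of this group. Values of *Hspb1* in T3, T4 and T5 (log2 CPM) were 4.08, 4.39 and 6.42 in PDGFRA+ cells, 4.47, 5.62 and 7.28 in PDGFRA- cells, 4.95, 5.12 and 6.48 in GAL1+ cells and 2.61, 4.33 and 5.98 in GAL1- cells. The GAL1- library of T3 was the lowest and the PDGFRA- library of T5 the highest. Its log2 fold change was 1.21 ± 0.31 (SE, adjusted p = 0.00753) in GAL1+ over GAL1- cells and -0.55 ± 0.31 (SE, adjusted p = 0.18) in PDGFRA+ over GAL1+ cells, with 46.4% of its stretches shared with a pseudogene. The first value rested on T3, whose difference was 2.34 against 0.79 in T4 and 0.50 in T5, and without T3 it was 0.64 (adjusted p = 0.0372). *Dnajb1* (HSP40) delivers clients to HSP70. For *Dnajb1*, T3, T4 and T5 had a log2 CPM of 6.09, 6.65 and 7.96 in PDGFRA+ cells, 6.61, 6.81 and 9.45 in PDGFRA- cells, 7.04, 7.22 and 8.49 in GAL1+ cells and 5.84, 6.26 and 7.52 in GAL1- cells. T5 stood above T3 and T4 in every population, and the PDGFRA- library of T5 was again the highest. *Dnajb1* was 1.05 ± 0.26 (SE, adjusted p = 0.00664) in GAL1+ over GAL1- cells and -0.68 ± 0.26 (SE, adjusted p = 0.0629) in PDGFRA+ over GAL1+ cells.

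*Bag3*, an HSP70 co-chaperone that routes clients to autophagy, was the member of this group whose GAL1+ and GAL1- ranges did not overlap. In T3, T4 and T5, *Bag3* was at a log2 CPM of 6.33, 6.32 and 7.07 in PDGFRA+ cells, 6.39, 6.87 and 7.92 in PDGFRA- cells, 6.73, 6.90 and 7.55 in GAL1+ cells and 6.13, 6.2 and 6.58 in GAL1- cells. It was 0.75 ± 0.18 (SE, adjusted p = 0.00477) in GAL1+ over GAL1- cells and -0.49 ± 0.18 (SE, adjusted p = 0.0526) in PDGFRA+ over GAL1+ cells. The *Dnaja1* levels (log2 CPM in T3, T4 and T5) were 6.59, 6.79 and 7.65 in PDGFRA+ cells, 6.91, 7.31 and 8.45 in PDGFRA- cells, 7.10, 7.37 and 8.24 in GAL1+ cells and 6.67, 6.89 and 7.55 in GAL1- cells. *Dnaja1*, another HSP40, had overlapping ranges and was 0.53 ± 0.13 (SE, adjusted p = 0.00523) and -0.56 ± 0.13 (SE, adjusted p = 0.00898) in these comparisons, and 10.4% of its stretches were shared. Quantile normalization brought *Dnaja1* to 0.27 (adjusted p = 0.0622) and -0.35 (adjusted p = 0.0346). The PDGFRA+ over GAL1+ calls ended without T3 for *Dnaja1* (adjusted p = 0.0683) and without T4 for *Dnaja1* (adjusted p = 0.0694). A call in GAL1+ over GAL1- cells was lost without T3 for *Dnajb1* (adjusted p = 0.0731).

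*Hspd1* and *Hspe1*, which encode the mitochondrial chaperonin HSP60 and its lid HSP10, lie head to head and share a promoter. In the RefSeq promoters of GRCm38.p6 (250 bases before to 50 after the start), 33 of the 40 genes had an entry. These promoters were searched on both strands for a heat shock element, spelled GAANNTTCNNGAA or TTCNNGAANNTTC. It was found in 3 of 10 heat shock genes (*Hsph1*, *Hspd1* and *Hspe1*), 0 of 23 ER stress genes and 0.662% of 27025 genes. The stretch between *Hspd1* and *Hspe1* is shown on the strand of *Hspe1*, with a match in capitals, at chr1:55088039-55088091, where the matches of both forms overlap:
*Hspe1*: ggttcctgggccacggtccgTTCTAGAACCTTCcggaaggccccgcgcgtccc
The capitals lie 89 to 77 bases upstream of the *Hspe1* start. A match is a description of the letters, and its absence in *Hspa1a* or *Dnajb1* says only that these letters are not in that window. *Hspd1* had log2 CPM values of 7.28, 7.25 and 7.98 in PDGFRA+ cells, 7.57, 7.32 and 8.37 in PDGFRA- cells, 7.50, 7.48 and 8.47 in GAL1+ cells and 7.41, 7.31 and 8.0 in GAL1- cells, in the order T3, T4 and T5. T5 was the highest tumor in every population, and 29.6% of the stretches of *Hspd1* were shared with other transcripts. *Hspd1* was -0.31 ± 0.11 (SE, adjusted p = 0.0484) in PDGFRA+ over GAL1+ cells and not called in GAL1+ over GAL1- cells, where it was 0.24 ± 0.11 (SE, adjusted p = 0.0859). The call of *Hspd1* was also lost under quantile normalization (-0.074, adjusted p = 0.591), in a fit to the compared populations alone (adjusted p = 0.0613) and without the trend (adjusted p = 0.083), while centring on the sample median moved it to -0.47 (adjusted p = 0.0225). *Hspe1* was called in neither, at -0.26 ± 0.13 (SE, adjusted p = 0.147) and 0.32 ± 0.13 (SE, adjusted p = 0.0671). The tumor took 87.1% of the variation of *Hspd1* and 82.8% of that of *Hspe1*. Calls in PDGFRA+ over GAL1+ cells were lost without T3 for *Hspd1* (adjusted p = 0.169), without T4 for *Hspd1* (adjusted p = 0.132) and without T5 for *Hspd1* (adjusted p = 0.219).

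Neither heat shock factor was called higher in the GAL1+ libraries. *Hsf1*, the main activator of the heat shock genes, was not called in any comparison, with -0.18 ± 0.13 (SE, adjusted p = 0.247) in GAL1+ over GAL1- cells. *Hsf2*, a related factor, went opposite to the chaperones. Over T3, T4 and T5 the log2 CPM of *Hsf2* was 5.30, 5.21 and 5.28 in PDGFRA+ cells, 5.29, 5.36 and 4.90 in PDGFRA- cells, 5.0, 4.47 and 5.04 in GAL1+ cells and 5.62, 5.57 and 5.59 in GAL1- cells. All GAL1- libraries lay above all GAL1+ libraries. *Hsf2* was -0.76 ± 0.17 (SE, adjusted p = 0.00391) in GAL1+ over GAL1- cells, the only heat shock gene lower there, and 0.43 ± 0.17 (SE, adjusted p = 0.0725) in PDGFRA+ over GAL1+ cells.

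**Figure D3:**
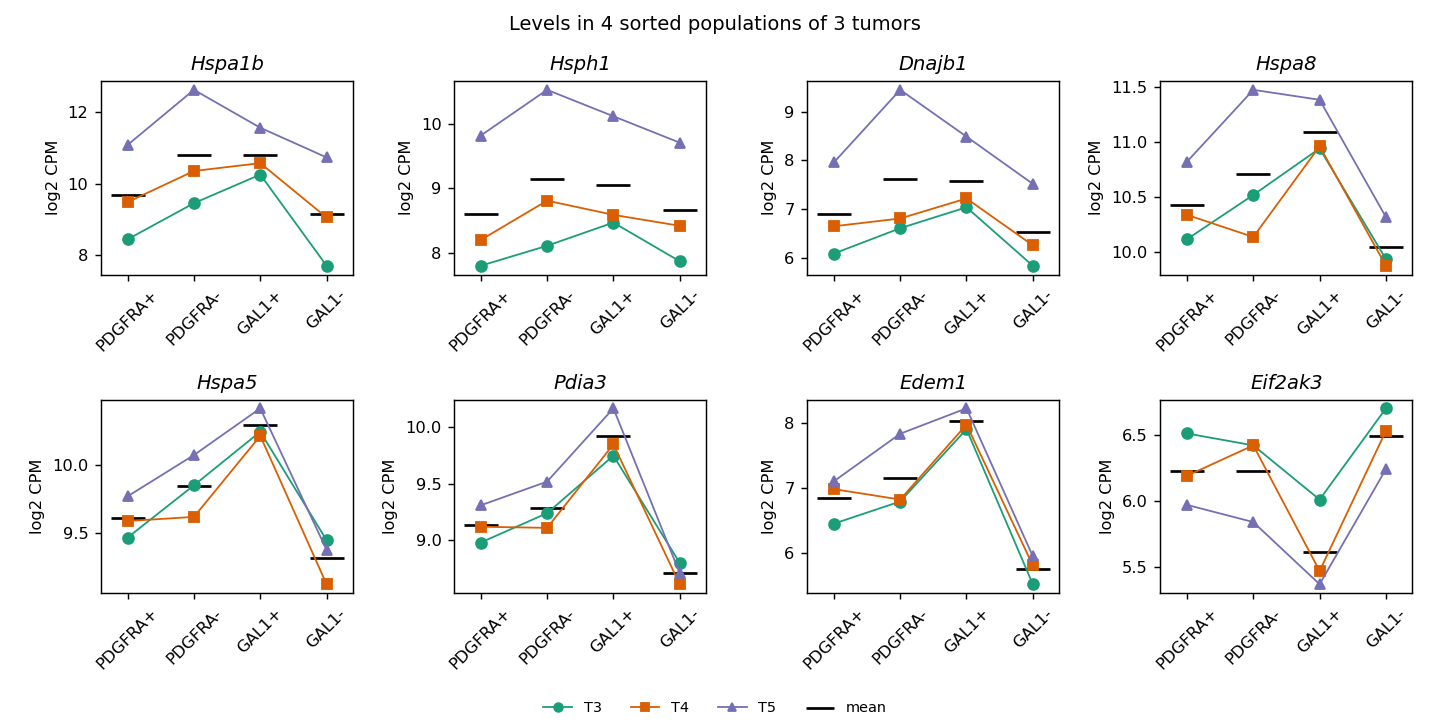
Log2 CPM of 8 genes (vertical axes, each with its own range) in the 4 sorted populations (horizontal axes), with a line per tumor and a bar for the mean of 3 tumors. T5 lies above T3 and T4 throughout for *Hspa1b*, *Hsph1* and *Dnajb1*, while *Hspa5*, *Pdia3* and *Edem1* peak in GAL1+ cells of every tumor and *Eif2ak3* is lowest there.

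Among the ER stress genes, all 8 ER chaperones and lectins, 3 of 3 disulfide isomerases and 3 of 3 ER J proteins were higher in GAL1+ than in GAL1- cells. Under quantile normalization the chaperones that kept the call were *Hspa5*, *Sdf2l1* and *Manf*. Many ER chaperone promoters carry the ER stress element, to which ATF6 and XBP1 bind together with NF-Y, and it was searched as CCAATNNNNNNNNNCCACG on both strands. It was found in 7 of 23 ER stress genes with a promoter entry, 0 of 10 heat shock genes and 37 of 27025 genes (0.137%). The stretches below give the element in capitals with 20 bases on each side, on the strand of the gene in GRCm38.p6. The search fixed the letters at both ends of the element and left the bases in between free, so that the ends are alike by choice. The positions are chr2:34772005-34772063 for *Hspa5*, chr10:86705618-86705676 and chr10:86705513-86705571 for the distal and the proximal copy of *Hsp90b1*, chr8:84847055-84847113 for *Calr*, chr11:50325780-50325838 for *Canx*, chr15:88819500-88819558 for *Creld2*, chr12:17266471-17266529 for *Pdia6* and chr14:118937807-118937865 for *Dnajc3*:
*Hspa5*: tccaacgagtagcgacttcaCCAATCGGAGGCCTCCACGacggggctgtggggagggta
*Hsp90b1* distal: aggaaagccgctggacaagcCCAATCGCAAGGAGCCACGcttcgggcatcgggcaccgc
*Hsp90b1* proximal: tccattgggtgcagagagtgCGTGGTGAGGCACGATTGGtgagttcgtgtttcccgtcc
*Calr*: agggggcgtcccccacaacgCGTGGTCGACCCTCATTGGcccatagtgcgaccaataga
*Canx*: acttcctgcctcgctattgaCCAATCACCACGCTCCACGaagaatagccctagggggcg
*Creld2*: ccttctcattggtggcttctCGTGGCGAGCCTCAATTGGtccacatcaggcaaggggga
*Pdia6*: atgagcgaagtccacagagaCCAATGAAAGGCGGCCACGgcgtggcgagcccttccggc
*Dnajc3*: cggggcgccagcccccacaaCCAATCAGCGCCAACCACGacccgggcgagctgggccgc
In *Calr*, *Creld2* and the proximal copy of *Hsp90b1* the element reads in the reverse direction. The element starts 65 bases upstream of the *Hspa5* start and 212 and 107 bases upstream of that of *Hsp90b1*. All 7 genes with the element were called higher in GAL1+ than in GAL1- cells, as were 14 of the 19 other ER stress genes, which include 3 with no promoter entry. A shorter XBP1 element, TGACGTGG, was in none of the 33 promoters and in 0.714% of all genes.

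*Hspa5* encodes BiP, the HSP70 of the ER and the chaperone that holds the sensors inactive. Values of *Hspa5* in T3, T4 and T5 (log2 CPM) were 9.47, 9.59 and 9.77 in PDGFRA+ cells, 9.85, 9.62 and 10.07 in PDGFRA- cells, 10.24, 10.21 and 10.41 in GAL1+ cells and 9.45, 9.13 and 9.38 in GAL1- cells. Every GAL1+ library lay above every other library, and all GAL1- libraries lay below all PDGFRA+ libraries. The log2 fold change of *Hspa5* was 0.97 ± 0.12 (SE, adjusted p = 0.000141) in GAL1+ over GAL1- cells and -0.68 ± 0.12 (SE, adjusted p = 0.00322) in PDGFRA+ over GAL1+ cells. Quantile normalization brought these to 0.43 (adjusted p = 0.0135) and -0.25 (adjusted p = 0.14). *Hsp90b1* encodes GRP94, the HSP90 of the ER. For *Hsp90b1*, T3, T4 and T5 had a log2 CPM of 10.21, 10.29 and 10.45 in PDGFRA+ cells, 10.48, 10.55 and 10.46 in PDGFRA- cells, 10.83, 10.84 and 10.98 in GAL1+ cells and 10.30, 10.06 and 10.04 in GAL1- cells. GAL1+ libraries again lay above all others, whereas the GAL1- library of T3 lay within the PDGFRA+ range. *Hsp90b1* was 0.75 ± 0.13 (SE, adjusted p = 0.000761) and -0.57 ± 0.13 (SE, adjusted p = 0.00811) in these comparisons, and its sign turned under quantile normalization, to -0.069 and 0.032.

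Calreticulin (*Calr*) and calnexin (*Canx*) are the lectins that fold glycoproteins. In T3, T4 and T5, *Calr* was at a log2 CPM of 10.15, 10.12 and 10.21 in PDGFRA+ cells, 10.25, 10.02 and 10.30 in PDGFRA- cells, 10.70, 10.54 and 10.55 in GAL1+ cells and 10.09, 9.72 and 9.78 in GAL1- cells. GAL1+ libraries were the highest here too. *Calr* was 0.74 ± 0.12 (SE, adjusted p = 0.000595) in GAL1+ over GAL1- cells and -0.44 ± 0.12 (SE, adjusted p = 0.0188) in PDGFRA+ over GAL1+ cells, which quantile normalization moved to 0.0055 (adjusted p = 0.967) and 0.10 (adjusted p = 0.424). *Canx* was 0.45 ± 0.11 (SE, adjusted p = 0.00662) in GAL1+ over GAL1- cells, which turned to -0.12 under quantile normalization, and was not called in PDGFRA+ over GAL1+ cells, at -0.26 ± 0.11 (SE, adjusted p = 0.0884). *Sdf2l1*, a partner of the BiP cycle, changed the most of this group. The *Sdf2l1* levels (log2 CPM in T3, T4 and T5) were 5.18, 5.40 and 5.64 in PDGFRA+ cells, 5.61, 4.75 and 6.14 in PDGFRA- cells, 6.35, 6.12 and 6.31 in GAL1+ cells and 4.94, 4.25 and 4.85 in GAL1- cells. Of the other libraries only PDGFRA- of T5 reached the GAL1+ range, and the GAL1- library of T4 was the lowest. *Sdf2l1* was 1.58 ± 0.23 (SE, adjusted p = 0.000356) and -0.85 ± 0.23 (SE, adjusted p = 0.019). *Manf*, a secreted ER stress protein, was 0.47 ± 0.10 (SE, adjusted p = 0.00264) and -0.41 ± 0.10 (SE, adjusted p = 0.0109). *Hyou1*, the nucleotide exchange factor of BiP, was 0.50 ± 0.12 (SE, adjusted p = 0.00621) and -0.34 ± 0.12 (SE, adjusted p = 0.0521), and *Creld2* was 0.42 ± 0.12 (SE, adjusted p = 0.0146) and -0.31 ± 0.12 (SE, adjusted p = 0.0699), so that neither passed the test in PDGFRA+ over GAL1+ cells. Quantile normalization ended the GAL1+ over GAL1- calls of *Hyou1* (0.21, adjusted p = 0.178) and *Creld2* (0.29, adjusted p = 0.0618), and brought *Manf* to 0.26 (adjusted p = 0.0448) and -0.27 (adjusted p = 0.052). In PDGFRA+ over GAL1+ cells the call was lost without T3 for *Hspa5*, *Hsp90b1*, *Calr*, *Sdf2l1* and *Manf* (adjusted p of 0.0505 to 0.176), without T4 for *Hsp90b1*, *Calr* and *Manf* (adjusted p of 0.0574 to 0.101) and without T5 for *Calr* and *Manf* (adjusted p of 0.0609 to 0.0728). The GAL1+ over GAL1- calls ended without T3 for *Creld2* (adjusted p = 0.0585), without T4 for *Canx* (adjusted p = 0.0736) and without T5 for *Canx* and *Creld2* (adjusted p of 0.0784 to 0.11).

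The protein disulfide isomerases, which form and shuffle disulfide bonds, separated GAL1+ from all other libraries. *Pdia3* had log2 CPM values of 8.98, 9.12 and 9.31 in PDGFRA+ cells, 9.24, 9.11 and 9.52 in PDGFRA- cells, 9.75, 9.85 and 10.17 in GAL1+ cells and 8.80, 8.61 and 8.71 in GAL1- cells, in the order T3, T4 and T5. Over T3, T4 and T5 the log2 CPM of *Pdia6* was 7.92, 7.98 and 8.19 in PDGFRA+ cells, 8.11, 7.91 and 8.41 in PDGFRA- cells, 8.78, 8.56 and 8.91 in GAL1+ cells and 7.76, 7.43 and 7.60 in GAL1- cells. The lowest GAL1+ library exceeded the highest library of any other population for both genes. *Pdia3* was 1.22 ± 0.12 (SE, adjusted p = 5.63e-05) in GAL1+ over GAL1- cells and -0.79 ± 0.12 (SE, adjusted p = 0.00204) in PDGFRA+ over GAL1+ cells. *Pdia6* was 1.15 ± 0.12 (SE, adjusted p = 5.97e-05) and -0.72 ± 0.12 (SE, adjusted p = 0.0024). Values of *Pdia4* in T3, T4 and T5 (log2 CPM) were 8.07, 8.20 and 8.14 in PDGFRA+ cells, 8.26, 8.42 and 8.12 in PDGFRA- cells, 8.55, 8.67 and 8.51 in GAL1+ cells and 8.04, 7.82 and 7.75 in GAL1- cells. *Pdia4* showed the same order with smaller distances, at 0.71 ± 0.11 (SE, adjusted p = 0.000474) and -0.44 ± 0.11 (SE, adjusted p = 0.0134). Under quantile normalization *Pdia4* was at 0.38 (adjusted p = 0.0133) and -0.15 (adjusted p = 0.298), *Pdia3* at 0.74 and -0.36, both called, and *Pdia6* at -0.46 in PDGFRA+ over GAL1+ cells, also called. A call in PDGFRA+ over GAL1+ cells was lost without T3 for *Pdia4* (adjusted p = 0.102), without T4 for *Pdia4* (adjusted p = 0.0828) and without T5 for *Pdia4* (adjusted p = 0.0573).

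ER J proteins are the DnaJ partners of BiP, and *Dnajc3* (p58IPK) also restrains PERK. For *Dnajc3*, T3, T4 and T5 had a log2 CPM of 6.53, 6.68 and 6.77 in PDGFRA+ cells, 6.59, 6.80 and 6.83 in PDGFRA- cells, 7.15, 7.24 and 7.47 in GAL1+ cells and 6.26, 6.31 and 6.44 in GAL1- cells. The GAL1+ range, from 7.15 to 7.47, did not meet the range of any other population, and the population took 91.3% of the variation of this gene. *Dnajc3* was 0.95 ± 0.09 (SE, adjusted p = 5.08e-05) in GAL1+ over GAL1- cells and -0.63 ± 0.09 (SE, adjusted p = 0.00178) in PDGFRA+ over GAL1+ cells. In T3, T4 and T5, *Dnajb9* was at a log2 CPM of 4.16, 4.21 and 4.63 in PDGFRA+ cells, 4.65, 4.27 and 5.13 in PDGFRA- cells, 4.75, 5.10 and 5.53 in GAL1+ cells and 4.01, 4.00 and 4.16 in GAL1- cells. *Dnajb9* (ERdj4), a target of XBP1, was 1.07 ± 0.16 (SE, adjusted p = 0.000441) and -0.79 ± 0.16 (SE, adjusted p = 0.00618), and its PDGFRA- library of T5 lay within the GAL1+ range. The *Dnajb11* levels (log2 CPM in T3, T4 and T5) were 6.50, 6.52 and 6.65 in PDGFRA+ cells, 6.77, 6.43 and 6.84 in PDGFRA- cells, 7.02, 6.91 and 7.28 in GAL1+ cells and 6.33, 6.16 and 6.54 in GAL1- cells. *Dnajb11* (ERdj3) was 0.73 ± 0.10 (SE, adjusted p = 0.000279) and -0.51 ± 0.10 (SE, adjusted p = 0.00542). Calls in PDGFRA+ over GAL1+ cells were lost without T3 for *Dnajb11* (adjusted p = 0.0713) and without T5 for *Dnajb11* (adjusted p = 0.0531).

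Genes of ER-associated degradation, which removes misfolded proteins to the proteasome, held the largest difference of all 40 genes. *Edem1* encodes a lectin that takes misfolded glycoproteins out of the folding cycle. *Edem1* had log2 CPM values of 6.45, 6.98 and 7.10 in PDGFRA+ cells, 6.79, 6.82 and 7.83 in PDGFRA- cells, 7.90, 7.97 and 8.22 in GAL1+ cells and 5.52, 5.81 and 5.95 in GAL1- cells, in the order T3, T4 and T5. GAL1- libraries were the lowest in every tumor, the GAL1+ libraries the highest, and none of the GAL1+ or GAL1- libraries overlapped with another population. *Edem1* was 2.27 ± 0.17 (SE, adjusted p = 3.93e-05) in GAL1+ over GAL1- cells, a 4.83 fold difference, and -1.18 ± 0.17 (SE, adjusted p = 0.00182) in PDGFRA+ over GAL1+ cells. *Herpud1* encodes a membrane component of the degradation machinery. Over T3, T4 and T5 the log2 CPM of *Herpud1* was 4.72, 5.78 and 5.40 in PDGFRA+ cells, 5.55, 5.27 and 6.16 in PDGFRA- cells, 6.05, 6.41 and 6.08 in GAL1+ cells and 4.30, 4.59 and 4.59 in GAL1- cells. T3 was the lowest tumor in PDGFRA+ cells, and the PDGFRA- library of T5 reached the GAL1+ range. *Herpud1* was 1.69 ± 0.24 (SE, adjusted p = 0.000326) and -0.88 ± 0.24 (SE, adjusted p = 0.0205). *Sel1l*, the scaffold of the HRD1 ubiquitin ligase, was not called, at -0.10 ± 0.11 (SE, adjusted p = 0.44) and 0.06 ± 0.11 (SE, adjusted p = 0.674). In PDGFRA+ over GAL1+ cells the call was lost without T3 for *Herpud1* (adjusted p = 0.207) and without T5 for *Herpud1* (adjusted p = 0.0581).

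The sensors did not move together. *Ern1* (IRE1), the kinase and RNase that splices *Xbp1* mRNA, was higher in GAL1+ cells. Values of *Ern1* in T3, T4 and T5 (log2 CPM) were 5.08, 5.79 and 6.31 in PDGFRA+ cells, 5.29, 5.94 and 7.35 in PDGFRA- cells, 6.35, 6.80 and 7.32 in GAL1+ cells and 4.56, 5.06 and 5.05 in GAL1- cells. All GAL1- libraries lay below all GAL1+ libraries, and T5 was the highest tumor in PDGFRA+, PDGFRA- and GAL1+ cells. *Ern1* was 1.93 ± 0.25 (SE, adjusted p = 0.000182) in GAL1+ over GAL1- cells and -1.10 ± 0.25 (SE, adjusted p = 0.00948) in PDGFRA+ over GAL1+ cells. *Eif2ak3* (PERK), the kinase that phosphorylates eIF2alpha, went the other way. For *Eif2ak3*, T3, T4 and T5 had a log2 CPM of 6.51, 6.19 and 5.97 in PDGFRA+ cells, 6.42, 6.42 and 5.84 in PDGFRA- cells, 6.01, 5.47 and 5.37 in GAL1+ cells and 6.70, 6.53 and 6.24 in GAL1- cells. Each tumor had its lowest level in GAL1+ cells. *Eif2ak3* was -0.87 ± 0.12 (SE, adjusted p = 0.000261) and 0.60 ± 0.12 (SE, adjusted p = 0.00552), the only ER stress gene called higher in PDGFRA+ than in GAL1+ cells. In T3, T4 and T5, *Atf6* was at a log2 CPM of 6.04, 6.18 and 6.08 in PDGFRA+ cells, 6.10, 6.23 and 6.69 in PDGFRA- cells, 6.41, 6.85 and 6.75 in GAL1+ cells and 5.77, 5.73 and 5.67 in GAL1- cells. *Atf6*, the sensor that is itself cleaved to a transcription factor, was 0.95 ± 0.15 (SE, adjusted p = 0.000507) and -0.57 ± 0.15 (SE, adjusted p = 0.0157), with GAL1+ libraries above all GAL1- libraries. The PDGFRA+ over GAL1+ calls ended without T3 for *Ern1*, *Eif2ak3* and *Atf6* (adjusted p of 0.0574 to 0.0949), without T4 for *Atf6* (adjusted p = 0.0908) and without T5 for *Atf6* (adjusted p = 0.0503).

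*Xbp1* and *Atf4* carry the signals of IRE1 and PERK to the nucleus. The *Xbp1* levels (log2 CPM in T3, T4 and T5) were 5.87, 5.76 and 6.05 in PDGFRA+ cells, 6.09, 5.97 and 6.57 in PDGFRA- cells, 6.38, 6.33 and 6.60 in GAL1+ cells and 5.56, 5.37 and 5.64 in GAL1- cells. *Atf4* had log2 CPM values of 6.66, 7.09 and 7.21 in PDGFRA+ cells, 7.07, 7.06 and 7.58 in PDGFRA- cells, 7.42, 7.70 and 7.57 in GAL1+ cells and 6.69, 6.78 and 6.81 in GAL1- cells, in the order T3, T4 and T5. For both genes all GAL1+ libraries lay above all GAL1- and PDGFRA+ libraries, while the PDGFRA- library of T5 was at their level. *Xbp1* was 0.92 ± 0.11 (SE, adjusted p = 0.000114) in GAL1+ over GAL1- cells and -0.55 ± 0.11 (SE, adjusted p = 0.00522) in PDGFRA+ over GAL1+ cells. *Atf4* was 0.80 ± 0.14 (SE, adjusted p = 0.000844) and -0.58 ± 0.14 (SE, adjusted p = 0.0109), the second of which was -0.38 (adjusted p = 0.0437) under quantile normalization. These are levels of transcripts, and neither the splicing of *Xbp1* nor the translation of *Atf4*, by which both factors are mainly controlled, was measured. *Ddit3*, which encodes CHOP, the factor linked to cell death under lasting ER stress, was not called in any comparison, at 0.14 ± 0.11 (SE, adjusted p = 0.332) and -0.19 ± 0.11 (SE, adjusted p = 0.213). A call in PDGFRA+ over GAL1+ cells was lost without T3 for *Xbp1* and *Atf4* (adjusted p of 0.0668 to 0.137).

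Targets of ATF4 and CHOP went in different directions. *Ppp1r15a* encodes GADD34, the phosphatase subunit that reverses eIF2alpha phosphorylation. Over T3, T4 and T5 the log2 CPM of *Ppp1r15a* was 6.21, 7.13 and 7.63 in PDGFRA+ cells, 6.91, 6.96 and 8.41 in PDGFRA- cells, 7.87, 7.99 and 8.30 in GAL1+ cells and 5.77, 6.15 and 6.64 in GAL1- cells. All GAL1+ libraries exceeded all GAL1- libraries, and the PDGFRA- library of T5 was the highest of the 12. *Ppp1r15a* was 1.87 ± 0.23 (SE, adjusted p = 0.00015) in GAL1+ over GAL1- cells, a 3.64 fold difference, and -1.06 ± 0.23 (SE, adjusted p = 0.00799) in PDGFRA+ over GAL1+ cells. *Chac1*, which degrades glutathione, was lower in GAL1+ cells. Values of *Chac1* in T3, T4 and T5 (log2 CPM) were 0.60, 1.54 and 2.10 in PDGFRA+ cells, 1.40, 1.37 and 2.29 in PDGFRA- cells, 0.98, 0.77 and 0.86 in GAL1+ cells and 1.19, 1.72 and 2.34 in GAL1- cells. The GAL1+ and GAL1- ranges did not overlap, and the log2 fold change was -0.88 ± 0.31 (SE, adjusted p = 0.0334) in GAL1+ over GAL1- cells and 0.54 ± 0.31 (SE, adjusted p = 0.19) in PDGFRA+ over GAL1+ cells. For *Trib3*, T3, T4 and T5 had a log2 CPM of 1.45, 1.65 and 1.96 in PDGFRA+ cells, 2.31, 2.37 and 2.61 in PDGFRA- cells, 2.59, 2.22 and 2.36 in GAL1+ cells and 1.78, 2.09 and 1.87 in GAL1- cells. *Trib3*, a pseudokinase that feeds back on ATF4, was 0.47 ± 0.20 (SE, adjusted p = 0.0722) and -0.70 ± 0.20 (SE, adjusted p = 0.0243), so that it passed the test in the second comparison and not in the first. Calls in PDGFRA+ over GAL1+ cells were lost without T3 for *Ppp1r15a* and *Trib3* (adjusted p of 0.133 to 0.229), without T4 for *Trib3* (adjusted p = 0.0815) and without T5 for *Trib3* (adjusted p = 0.0641). In GAL1+ over GAL1- cells the call was lost without T4 for *Chac1* (adjusted p = 0.134) and without T5 for *Chac1* (adjusted p = 0.258). A fit to the compared populations alone ended the calls of *Trib3* in PDGFRA+ over GAL1+ cells (adjusted p = 0.0609) and *Chac1* in GAL1+ over GAL1- cells (adjusted p = 0.0726). The element TGATGCAA, to which ATF4 binds with C/EBP partners, was in the promoters of *Herpud1* and *Chac1* and in 1.03% of all genes. Both stretches are shown with the element, which reads in the reverse direction, in capitals, at chr8:94386297-94386344 for *Herpud1* and chr2:119351029-119351076 for *Chac1* (GRCm38.p6, strand of the gene):
*Herpud1*: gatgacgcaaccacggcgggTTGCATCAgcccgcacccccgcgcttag
*Chac1*: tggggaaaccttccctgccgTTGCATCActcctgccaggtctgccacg
The genes that share these letters were called in opposite directions in GAL1+ over GAL1- cells.

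**Figure D4:**
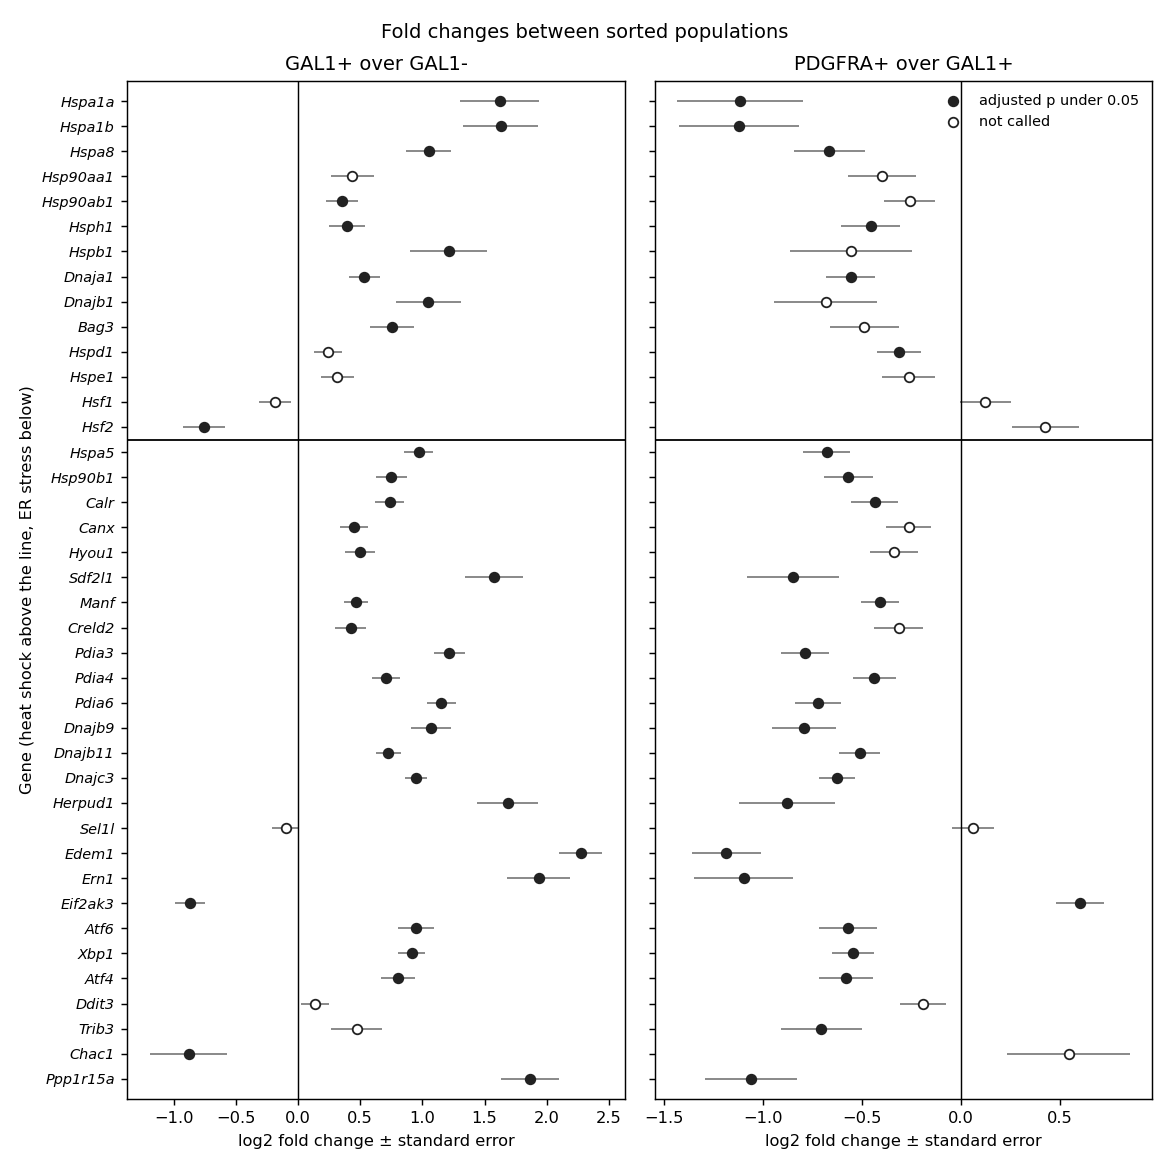
Log2 fold change with its standard error (horizontal axes) of the 40 genes (vertical axis) in GAL1+ over GAL1- cells (left) and PDGFRA+ over GAL1+ cells (right). Filled points passed an adjusted p of 0.05, open points did not. *Edem1* is the farthest right at 2.27 on the left panel, and *Hsf2*, *Eif2ak3* and *Chac1* are the filled points left of 0.

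Between PDGFRA+ and PDGFRA- cells no gene of the table passed the test, so that 0% of all genes and 0 of the 40 were called. Most of the 40 nevertheless had lower mean levels in PDGFRA+ cells: the log2 fold change was negative in 12 of 14 heat shock genes (median -0.47) and 24 of 26 ER stress genes (median -0.21). It was negative in 9577 of all 18180 genes, with a median of -0.02. At an unadjusted p under 0.05, 10 heat shock genes and 3 ER stress genes were lower and none higher, where 5.74% of all genes were lower and 6.02% higher at that threshold. The smallest p-values among heat shock genes belonged to *Dnaja1*, at -0.54 ± 0.13 (SE, adjusted p = 0.214), *Hsph1*, at -0.55 ± 0.15 (SE, adjusted p = 0.257), *Hspa1b*, at -1.14 ± 0.30 (SE, adjusted p = 0.254), and *Hspa1a*, at -1.14 ± 0.32 (SE, adjusted p = 0.264). Among ER stress genes they belonged to *Trib3*, at -0.75 ± 0.20 (SE, adjusted p = 0.261), *Ddit3*, at -0.35 ± 0.11 (SE, adjusted p = 0.306), *Xbp1*, at -0.32 ± 0.11 (SE, adjusted p = 0.32), and *Dnajb9*, at -0.35 ± 0.16 (SE, adjusted p = 0.44). The median difference over the heat shock genes was -0.32 for T3, -0.20 for T4 and -0.75 for T5, and without the PDGFRA- library of T5 the medians were -0.25 for heat shock and -0.13 for ER stress genes, with 5 and 2 genes lower at an unadjusted p under 0.05. Without the tumor block the unadjusted counts were 0 and 1. Of all genes, 1043 were lower at that threshold in the fit to all libraries with the block. The count was 646 without that library and 335 without the block. At the same threshold 6 of 6 mature oligodendrocyte markers were lower in PDGFRA+ cells (median -1.84, summed CPM of 339 to 431 and 838 to 1196 in PDGFRA+ and PDGFRA- cells), as were 3 of 5 neutrophil markers (24.8 to 79.3 and 43.2 to 156). The neutrophil markers *Ly6g* and *Retnlg* were not in the data. Also lower were 2 of 7 T and NK cell and 1 of 8 macrophage markers. Higher were 3 of 8 oligodendrocyte lineage, 1 of 8 microglia and 1 of 5 astrocyte markers. Of the 12 pan-leukocyte markers 0 passed in either direction. The part of these cell types in the differences was not tested.

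Between PDGFRA+ and GAL1- cells, *Edem1* was the only member called, at 1.09 ± 0.17 (SE, adjusted p = 0.0044), where 8.26% of all genes were called higher in PDGFRA+ cells and 0.0110% lower. No heat shock gene was called. The medians were 0.07 for heat shock and 0.27 for ER stress genes, beside -0.02 for all genes. The heat shock median was -0.051 under quantile normalization and -0.040 after centring, where that of all genes was -0.15 and -0.13. Relative to all genes it was 0.092 with the deposited scaling, 0.099 under quantile normalization and 0.092 after centring. At an unadjusted p under 0.05, 13 ER stress genes and 0 heat shock genes were higher, beside 2814 of all 18180 genes higher and 336 lower. After *Edem1*, the ER stress genes with the smallest p-values were *Pdia6* at 0.43 ± 0.12 (SE, adjusted p = 0.0552), *Pdia3* at 0.43 ± 0.12 (SE, adjusted p = 0.0627) and *Dnajc3* at 0.32 ± 0.09 (SE, adjusted p = 0.063). Among heat shock genes they were *Hspb1* at 0.66 ± 0.31 (SE, adjusted p = 0.322), *Hspa8* at 0.38 ± 0.18 (SE, adjusted p = 0.322), *Hsf2* at -0.33 ± 0.17 (SE, adjusted p = 0.379) and *Hspa1b* at 0.51 ± 0.30 (SE, adjusted p = 0.462). The call of *Edem1* was lost without T3, at an adjusted p of 0.0965 (7.28e-05 to 0.0965 over the alternatives), and without the tumor block, at 0.0601. A fit to these populations alone called 10 ER stress genes, all higher, and 5 heat shock genes, 4 higher and 1 lower. Of all 18180 genes it called 2385 higher and 1001 lower. A fit without the PDGFRA- library of T5 called 8 ER stress genes, all higher, beside 1872 of all genes higher and 14 lower. The 12 pan-leukocyte markers were all higher in PDGFRA+ than in GAL1- cells as well, with a median of 2.81.

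Other genes of the same pathways were taken from a separate list. Of 27 further cytosolic chaperone and co-chaperone genes, 13 were higher and 4 lower in GAL1+ than in GAL1- cells, led by the HSP70 co-chaperone *Bag1* (log2 fold change 1.57) and the HSP40 genes *Dnajb4* (1.33) and *Dnajb6* (1.19). The calls in both directions made up 63.0% of the list, beside 58.2% of all genes (28.9% higher and 29.3% lower). In PDGFRA+ over GAL1+ cells 8 were lower and 2 higher, and the same genes were the lowest, at -0.92, -0.82 and -0.85. With both directions pooled, this share of the list was close to the 38.0% of all genes (17.0% lower and 20.9% higher). Quantile normalization moved the first count to 8 higher and 6 lower. The chaperonin TRiC, which folds actin and tubulin, had 1 of 8 subunits called in GAL1+ over GAL1- cells (*Cct2*, at 0.25, but -0.02 after quantile normalization, which called 4 subunits lower) and 0 of 8 in PDGFRA+ over GAL1+ cells, where 1 was lower at an unadjusted p under 0.05. Of all 18180 genes, 4134 were lower and 4623 higher at that threshold. Of 27 further ER folding and degradation genes, 14 were higher and none lower in GAL1+ than in GAL1- cells, 51.9% of the list. The largest differences were those of *Edem2* (2.01), the oxidase *Ero1b* (1.72) and the disulfide isomerase *P4hb* (1.24). In PDGFRA+ over GAL1+ cells 12 of these 27 were lower and none higher (44.4%), led by *Ero1b* (-1.21), *Edem2* (-0.95) and *Ero1a* (-0.78).

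The remaining 20 genes of the unfolded protein and integrated stress responses divided. In GAL1+ over GAL1- cells 9 were higher and 3 lower, beside 58.2% of all genes called, and in PDGFRA+ over GAL1+ cells 5 were lower and 2 higher, beside 38.0%. With both directions pooled, these shares of the list were near that of all genes. By direction, 28.9% of all genes were higher and 29.3% lower in the first comparison. In the second, 17.0% were lower and 20.9% higher. The largest belonged to *Cebpb*, a C/EBP factor that is also a factor of myeloid cells, at 3.86, to the cystine transporter *Slc7a11* at 2.52 and to *Atf3* at 2.47. In PDGFRA+ over GAL1+ cells the same genes were at -1.41, -1.44 and -1.14. *Atf3* is also an immediate early gene, and of 11 such genes 7 were higher and 3 lower in GAL1+ than in GAL1- cells, with a median log2 fold change of 1.04. Their summed CPM was 3327 to 4491 in GAL1+ cells, 3294 to 3994 in GAL1- cells, 3300 to 4343 in PDGFRA+ cells and 3899 to 4223 in PDGFRA- cells. The part of tissue dissociation in the chaperone levels was not tested.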

How the data were processed

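Libraries were made from total RNA of sorted cells with a low-input stranded kit. The authors trimmed reads with fastp, aligned them to mm39 with STAR, counted them on exons with featureCounts (multi-mapping reads as fractions), kept genes above a CPM threshold and deposited log2 CPM values after TMM scaling and the voom transformation, which adds 0.5 to each count. A stranded setting of the counting is not given in the sources used here.

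The deposited log2 values were analysed with limma 3.58.1 in R 4.3.3, with a term per population, tumor as a block and a mean-variance trend, on all 12 samples (6 degrees of freedom for the residuals, 3.49 for the prior). A gene was called at an adjusted p (Benjamini-Hochberg, 18180 genes) below 0.05. To recover reads, the lowest value in each library was taken as 0 reads, after which 41.3% to 59.2% of values were whole within 0.01. No count test was therefore run. The floor of 3 reads covers counting error only. Tumor numbers in the labels pair the libraries, and after subtraction of the population means profiles of the same tumor correlated at 0.14 to 0.66 (18 pairs, across genes, which are not independent replicates). No label says that libraries of a tumor are separate cultures or animals beyond the tumor number.

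The member genes and the gene lists were chosen with earlier results of these data known. All member genes are reported, with values in every sample for up to 4 called genes per role, and of the other lists up to 3 called genes per comparison. On simulated data for PDGFRA+ over GAL1+ cells (18180 genes, 200 changed, 5 runs) the fit called 45.6% of genes changed 2 fold and 81.8% of those changed 4 fold, and 5.66% of its calls were not changed. In the data 38.0% of genes were called in this comparison, a far larger share than was changed in the simulation. The adjusted p depends on that share, so that these rates do not carry over to the data. Promoters are those of RefSeq (GRCm38.p6), which is not the build of the counts, so that no other coordinates are given. Shared stretches are 75-base words of a transcript that occur in other genes, after the read length. Alternatives left out the tumor block or each tumor, fitted the compared populations alone, changed the moderation, pseudocount (1 CPM), filter (log2 CPM above 1 in 3 samples) or scaling, and, chosen after seeing the data, left out the PDGFRA- library of T5. An allele that all groups share is not reported here.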

Additional observations from a re-analysis of the deposited data

How the results depend on the processing

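Over 12 settings the fold changes of single genes kept direction and call in 783 cases, lost the call in 103, gained it in 8 and reversed in 6. The 783 include genes that were not called at first and stayed so, among them all those of PDGFRA+ over PDGFRA- cells. Kept under every alternative were 17 of 33 calls in GAL1+ over GAL1- cells and 4 of 26 in PDGFRA+ over GAL1+ cells. In PDGFRA+ over GAL1- cells it was 0 of 1. The reversals were under quantile normalization: *Hsp90b1* at 0.032 and *Calr* at 0.10 in PDGFRA+ over GAL1+ cells, and *Hsp90ab1* at -0.74, *Hsph1* at -0.030, *Hsp90b1* at -0.069 and *Canx* at -0.12 in GAL1+ over GAL1- cells. The cause was not tested.

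Without the replicate block, which pairs libraries by tumor, 3154 genes were called in PDGFRA+ over GAL1+ cells (6900 with it), with 0 heat shock and 10 ER stress genes, 2 heat shock genes in GAL1+ over GAL1- cells, and 612 genes with 0 ER stress genes in PDGFRA+ over GAL1- cells (1504 with it). Fitting only the populations compared called 3386 genes in PDGFRA+ over GAL1- cells, with 5 heat shock and 10 ER stress genes.

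Centring on the sample median shifted the median of all genes in PDGFRA+ over GAL1+ cells from 0.01 to -0.15, and the split of calls from 3803 higher and 3097 lower to 3038 and 4408. It called 11 heat shock genes there, with medians of -0.63 for heat shock and -0.73 for ER stress genes, or -0.48 and -0.58 relative to the median of all genes. The heat shock median in PDGFRA+ over GAL1- cells was -0.040, beside -0.13 for all genes. Quantile normalization called 2 heat shock genes in PDGFRA+ over GAL1+ cells, 1 lower and 1 higher, with medians of -0.18 and -0.36, and gave 0.24 and 0.49 in GAL1+ over GAL1- cells and -0.051 for heat shock genes in PDGFRA+ over GAL1- cells. In the same order of comparisons, the medians of all genes were then -0.07, -0.09 and -0.15.

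Leaving out a tumor or the PDGFRA- library of T5 gave 2110 to 7677 genes called in PDGFRA+ over GAL1+ cells, 0 to 10 heat shock genes, 5 to 21 ER stress genes and ER stress medians of -0.57 to -0.52, and in PDGFRA+ over GAL1- cells 0 to 1886 genes and 0 to 8 ER stress genes, with the lowest values without T3. In PDGFRA+ over PDGFRA- cells no setting called any gene. With 3 tumors, and 6 residual degrees of freedom, a call that was missed does not show that levels are alike. Members had at least 21 reads in each library.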
